A study of Mus musculus with 4 samples.

Results

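Adherens junctions are the belts that hold neighbouring epithelial cells together. Nectins are immunoglobulin-like adhesion proteins that bind nectins on the next cell, and afadin ties their tails to actin. Classical cadherins make the calcium-dependent bond, and catenins link their tails to actin or hold them at the membrane. In the early retina the cells form a polarised neuroepithelium in which N-cadherin is the main cadherin, while E-cadherin is the cadherin of pluripotent cells and surface epithelia. The 9 genes described here are Nectin1, Nectin2 and Nectin3, Afdn (afadin), Cdh1 (E-cadherin), Cdh2 (N-cadherin), Ctnna1 (alpha-catenin), Ctnnb1 (beta-catenin, which also carries Wnt signals to the nucleus) and Ctnnd1 (p120-catenin, which keeps cadherins at the cell surface).

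The rule took every row of the 4 site tables whose gene name is one of these 9, out of 20001 gene names in all. It gave 1795 listings at 1617 positions. The genes were grouped by function, with earlier results of the same tables known, including a small rise of Nectin1 levels that did not pass a test. The levels of Nectin1 are therefore given without a test.

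The study measured N6-methyladenosine (m6A), the commonest internal mark of messenger RNA, in mouse retinal organoids at day 6 of differentiation with GLORI. In this chemistry glyoxal and nitrite turn unmethylated adenosine into inosine, which is read as G, while m6A is still read as A. The level of a site is thus A reads as a percentage of A plus G reads. The organoids came from stem cells that carry the Rx:GFP retinal reporter and, at the C-terminal end of the endogenous Mettl3 gene, an FKBP12F36V-HA tag. METTL3 is the enzyme that places most m6A on mRNA, and dTAG13 directs proteins with this tag to degradation. The untreated group had 2 libraries collected at 0 h, and the dTAG13 group had 2 libraries given 125 nM dTAG13 for 8 h. Both groups carry the reporter and the tag. The genotype fields of the 4 samples name Mettl3, Mettl4, Mettl5 and Mettl6 in turn, whereas the growth protocol names Mettl3, so the tag was taken to be on METTL3 and this was not tested. Because dTAG13 acts on the protein, RNA of the tagged gene does not check the labels. Whether the libraries came from separate cultures is not given in the sources used here, so p-values measure only the spread between these libraries.

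A library table lists only sites the authors called, and no row of the 4 tables is below a depth of 15, 5 reads with A or a level of 10%. A position missing from a table can be unmethylated, below those limits or uncovered, and it has no value there. The untreated libraries listed 335607 and 350462 sites in all and the dTAG13 libraries 220034 and 263069. The median listed site had 78 and 80 reads without dTAG13 and 75 and 91 reads with it. All 7 retinal progenitor markers had a value in each library (summed gene coverage 2630 and 3106 untreated, 1950 and 2802 with dTAG13), and so did all 6 pluripotency markers (1045 and 1026 against 731 and 1046). Of 7 surface epithelium markers 4 or 5 had a value (463 and 365 against 418 and 434), and Krt8 and Trp63 had none in any library. In RNA from whole organoids, fewer cells of a type and less RNA per cell cannot be told apart.

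The highest recurrent methylation of the 9 genes lay in the catenins. With a level of 50% or more over at least 50 reads required in both untreated libraries, 3 sites remained, 1 each in Ctnnb1, Ctnna1 and Ctnnd1. None of the 3 was listed at a comparable level after dTAG13: 2 had no listing in either dTAG13 library, and the site in Ctnnd1 was listed in 1 of them at a low level. In all genes 2226 sites met the same limits, of which 76.8% were listed in no dTAG13 library. Requiring 100 reads, or a level of 40%, left 3 sites as well. With the groups exchanged, none of the sites of the 9 genes reached these limits in both dTAG13 libraries, against 169 sites in all genes. Of those 169, 71.6% were listed in no untreated library, so missing from the other group was common in both directions.

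Ctnnb1 carried its high site at position 120788660 of chromosome 9, plus strand. The level was 78.5% of 857 reads (Wilson 95% interval 75.7 to 81.1) in untreated replicate 1 and 83.7% of 1000 reads (81.3 to 85.9) in untreated replicate 2. Such intervals cover counting error only. Neither dTAG13 library listed it. Reads were present next to it: position 120788617, 43 bases away, was listed in both dTAG13 libraries, at 10.4% of 393 reads and 13.2% of 304 reads. Within 500 bases on either side, the highest listed level was 15.9% in dTAG13 replicate 1 and 21.6% in dTAG13 replicate 2.

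In Ctnna1 the corresponding site was position 35387501 of chromosome 18, plus strand. It had 65.1% of 427 reads (60.5 to 69.5) and 72.1% of 1148 reads (69.5 to 74.6) in the untreated libraries and no listing after dTAG13. The nearest listed position in dTAG13 replicate 1 was 98 bases away with 487 reads at 22.8%, and in dTAG13 replicate 2 it was 12 bases away with 349 reads at 13.8%. Here high levels did occur nearby after dTAG13, with up to 96.7% and 97.8% at other positions within 500 bases.

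The site in Ctnnd1 was position 84433171 of chromosome 2, minus strand. Its level was 76.3% of 139 reads (68.5 to 82.6) and 88.5% of 442 reads (85.1 to 91.1) without dTAG13. In dTAG13 replicate 2 it was 16.4% of 268 reads (12.5 to 21.3), an interval far below both untreated ones. dTAG13 replicate 1 did not list the position, although a position 6 bases away had 202 reads there at 12.4%, so the site has no tested difference. Other positions within 500 bases reached 48.1% in dTAG13 replicate 1 and 52.6% in dTAG13 replicate 2.

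**Figure D1:**
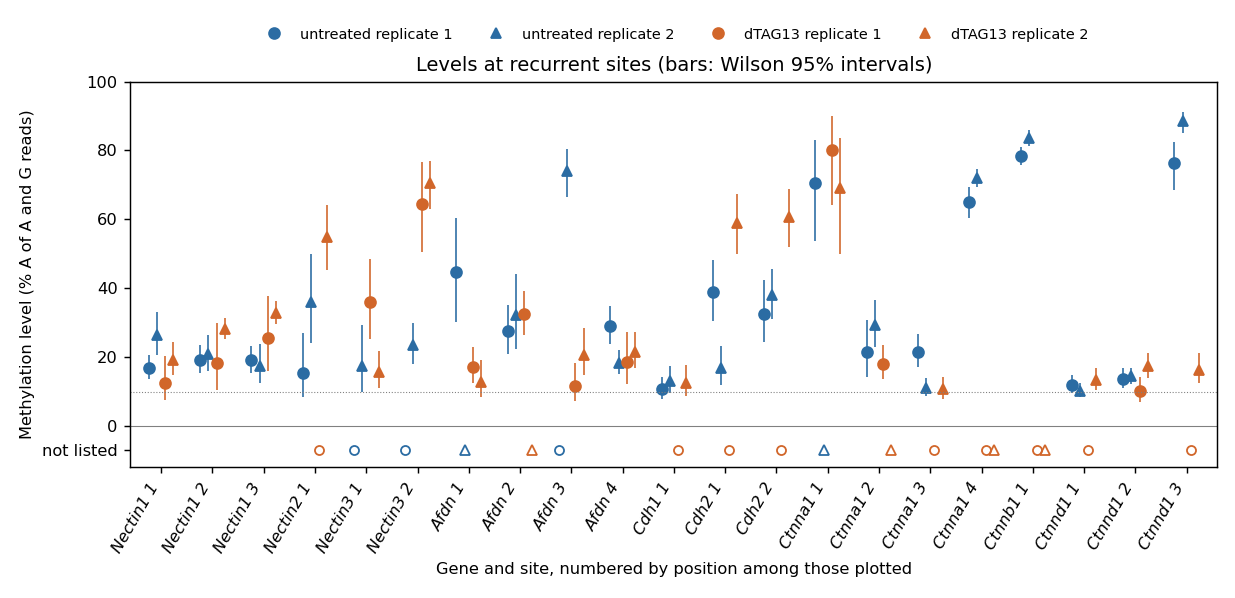
Methylation level (% A of A and G reads) at the 21 plotted sites of the 9 genes, which are the sites listed in 3 or 4 libraries and the 3 high catenin sites; each point is 1 library, bars are Wilson 95% intervals, the dotted line is the 10% limit of the tables and open symbols mark libraries that do not list the site. Ctnna1 site 4, Ctnnb1 site 1 and Ctnnd1 site 3 are the 3 high catenin sites, chosen by their untreated levels alone. Their high untreated values have no high partner after dTAG13. At Nectin1 sites 1 and 2 the groups overlap, and both treated points are higher at its site 3.

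**Figure D2:**
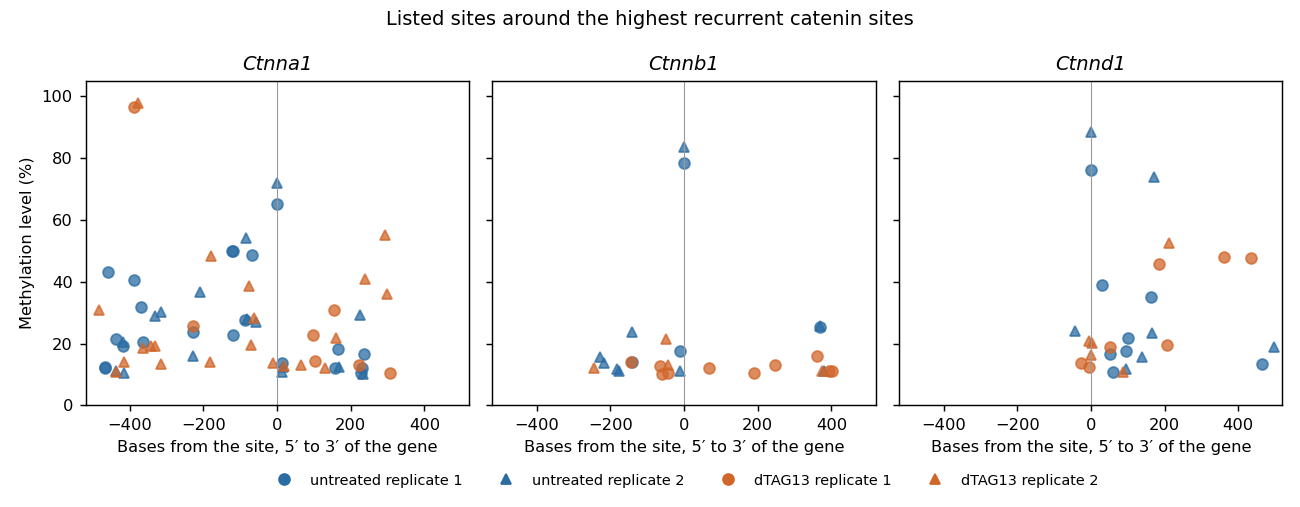
Level (%) of every listed site within 500 bases of the 3 high catenin sites, against the distance in bases along the gene from 5′ to 3′; each point is 1 site in 1 library. Both untreated points stand at distance 0 between 65.1% and 88.5%, the sites having been chosen by their untreated levels. Close by on either side lie dTAG13 points at lower levels, except for high points in Ctnna1 at 96.7% and 97.8%.

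The 3 nectin genes differed in how many sites they carried. Nectin3 had the most, with 145 and 129 sites in the untreated libraries and 88 and 133 with dTAG13. Nectin1 had 30 and 30 against 21 and 23, so both treated libraries were lower. Nectin2 had 36 and 20 against 22 and 24, and the groups overlapped. With at least 100 reads per site the ratio of treated to untreated means turned from 0.821 to 1.32 in Nectin2.

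Nectin1 had the most positions common to all libraries: 3 positions on the plus strand of chromosome 9 were listed in all 4, within 166 bases. At position 43715518 the level was 16.9% of 473 reads and 26.4% of 182 reads untreated, and 12.5% of 104 reads and 19.1% of 257 reads with dTAG13. Position 43715678 had 19.2% of 381 and 20.8% of 231 reads untreated, and 18.3% of 60 and 28.3% of 814 reads with dTAG13. Position 43715684, 6 bases on and so covered by many of the same reads, had 19.1% of 377 and 17.5% of 177 reads untreated, and 25.4% of 59 and 32.9% of 724 reads with dTAG13. The groups overlapped at the first pair of positions, and at the last both treated libraries were the higher ones. Summed over the 3 sites the level was 18.3% and 21.5% untreated (19.9% ± 2.30, SD, n = 2) and 17.5% and 28.8% treated (23.1% ± 8.00, SD, n = 2). The treated libraries thus lay below and above both untreated ones. A 4th position, 43716783, was listed in both untreated libraries only, at 18.7% of 251 and 11% of 219 reads.

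Nectin1 sites were gathered at the 3′ side of the listed span: 87.8% of its 90 positions fell within 5000 bases of the most 3′ one. Its single-library sites reached 100% of 98 reads at position 43715270, in dTAG13 replicate 1.

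Nectin2, on the minus strand of chromosome 7, had 1 position in 3 libraries. At 19464568 the level was 15.5% of 58 and 36.0% of 50 reads untreated and 54.8% of 104 reads in dTAG13 replicate 2. The treated value was above both untreated ones, and dTAG13 replicate 1 had no value. Levels of this gene also differed widely between libraries of 1 group: position 19451471 had 15.5% of 232 reads in untreated replicate 1 and 94.7% of 151 reads in untreated replicate 2, with no listing after dTAG13. Position 19464029 had 56.8% of 37 and 35.9% of 103 reads, again in the untreated libraries only. Listed in both dTAG13 libraries and in no untreated one were 19458687 (52.4% of 21 and 100% of 15 reads), 19466969 (47.2% of 106 and 24.1% of 112 reads) and 19483268 (21.1% of 209 and 11.9% of 369 reads). No position of Nectin2 was listed in all 4 libraries, so the replicates of both groups could not be compared at the same position. Its highest level over at least 50 reads was 100% of 89 reads, at 19483315 in dTAG13 replicate 2.

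Nectin3, on the minus strand of chromosome 16, held 456 of the 1617 positions and none in all 4 libraries. Both positions found in 3 libraries lacked untreated replicate 1. At 46279357 the level was 23.5% of 196 reads untreated and 64.6% of 48 and 70.6% of 163 reads with dTAG13, and at 46209120 it was 17.5% of 57 reads against 36.1% of 61 and 15.8% of 177 reads. The first was higher in both treated libraries and the second lay between them.

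A group of deep recurrent Nectin3 sites stood together. Positions 46268613, 46268700, 46268724 and 46268736 had 15.2%, 14.6%, 15.9% and 21.9% in untreated replicate 1 (506, 671, 716 and 854 reads). In untreated replicate 2 they had 11.3%, 13.3%, 20.6% and 26.4% (441, 865, 895 and 955 reads). Each pair was within 5 points. None of the 4 was listed after dTAG13, while the same stretch of 329 bases held 5 and 8 other listed sites in the dTAG13 libraries, with median depths of 203 and 517 reads. Position 46284309 had 24.5% of 245 and 47.3% of 842 reads untreated only, and 46284430 had 10.6% of 246 and 10.4% of 193 reads untreated only. The treated libraries in turn listed 46284290, 19 bases from the first of these, at 11.6% of 268 and 18.8% of 1363 reads. At the remaining 7 positions listed in both untreated libraries and in no treated one, the replicates were closest at 46209383 (35.6% of 118 and 39.3% of 140 reads). They were farthest apart at 46215116 (11.6% of 69 and 68.5% of 54 reads), 46212764 (43.2% of 74 and 100% of 25 reads) and 46264059 (64.1% of 142 and 10.9% of 110 reads). The others were 46208187 (25.0% of 112 and 31.0% of 29 reads), 46208507 (38.3% of 94 and 21.1% of 95 reads) and 46267807 (21.8% of 284 and 12.4% of 185 reads). These sites thus ranged from replicates that nearly matched to replicates more than 50 points apart. Of the 6 positions listed in both dTAG13 libraries and no untreated one, 46215620 was the highest, at 80.6% of 62 and 93.8% of 16 reads. The remaining 4, at 46208217, 46214493, 46268501 and 46269143, had levels from 10.2% to 30.7%. The highest single-library level over at least 50 reads was 100% of 136 reads at 46209946, in dTAG13 replicate 2.

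Afdn, on the plus strand of chromosome 17, had 62 and 72 listed sites untreated and 60 and 60 with dTAG13. The lower treated count did not hold for deeper sites: the ratio of means was 0.896 over all listed sites, 1.02 for sites with at least 50 reads and 1.40 with at least 100. One position, 14124717, was listed in all 4 libraries, at 29.0% of 262 and 18.3% of 442 reads untreated and 18.6% of 97 and 21.6% of 232 reads treated. The treated values lay inside the untreated range, and the difference of -3.61 points had an adjusted p of 0.976 (quasi-binomial model over 2321 sites, Benjamini-Hochberg).

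Of the 12 Afdn positions listed in at least 1 library of each group, 7 were lower with dTAG13 and 5 higher. The other 3 listed in 3 libraries went different ways. Position 14108517 had 74.1% of 147 reads in untreated replicate 2 (66.5 to 80.5) and 11.6% of 129 (7.17 to 18.3) and 20.7% of 135 reads (14.8 to 28.3) in the dTAG13 libraries. Position 14024297 had 44.7% of only 38 reads in untreated replicate 1 and 17.1% of 193 and 12.8% of 149 reads treated. At 14102751 there was little to separate 27.5% of 153 and 32.4% of 68 reads untreated from 32.5% of 197 reads in dTAG13 replicate 1. These untreated values of 74.1% and 44.7% each rest on 1 library.

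Near its most 3′ listed sites, the untreated replicates themselves disagreed at 1 of a pair of neighbouring sites. Position 14124494 had 20.2% of 198 and 32.3% of 223 reads, whereas 14124502 had 71.8% of 149 and 22.8% of 193 reads, neither listed after dTAG13. The treated libraries disagreed likewise at 14124520, with 63.3% of 169 and 14.2% of 134 reads. Closer agreement was seen at 14125474 (13.6% of 597 and 18.7% of 460 reads, untreated only) and at 14125332 (12.6% of 246 and 11% of 292 reads, dTAG13 only). The other positions listed in both libraries of 1 group were 14052681 without dTAG13 and 14104902, 14125215 and 14126016 with it, at 13.9% to 33.3%. A single-library site at 13980997 had A in all of its 214 reads in dTAG13 replicate 2.

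Cdh1 was the sparsest of the 9 genes, with 14 and 12 listed sites untreated and 9 and 5 with dTAG13, both treated libraries lower. All its positions were on the plus strand of chromosome 8, and 58.8% of its 34 positions fell in 1000 bases. The 1 position in 3 libraries, 107395546, had 10.6% of 339 and 13.0% of 277 reads untreated and 12.6% of 207 reads in dTAG13 replicate 2. The intervals of these 3 values overlapped. Position 107396696, untreated only, had 36.5% of 282 reads in 1 library and 100% of 19 reads in the other. The highest level over at least 50 reads was 100% of 149 reads, at 107395394 in dTAG13 replicate 1. The same position had 41.7% of 144 reads in untreated replicate 1 and no listing in the other libraries. Gene coverage of Cdh1 was 117 and 70.4 untreated and 68.0 and 72.5 treated, 0.654 to 1.18 times the median gene of the library, with the single high value in untreated replicate 1. The summed coverage of the surface epithelium and pluripotency markers given above overlapped between the groups in the same libraries. Those sums were not divided by the median gene of the library, and the surface epithelium marker Grhl2 entered them with dTAG13 only. The part of these markers in the Cdh1 values was not tested.

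Cdh2, on the minus strand of chromosome 18, had 42 and 41 sites untreated and 32 and 42 treated, and the groups overlapped. Both positions in 3 libraries, 16760664 and 16760674, lie 10 bases apart and share reads. The first had 38.9% of 113 and 16.8% of 167 reads untreated and 59.0% of 117 reads in dTAG13 replicate 2. The second had 32.7% of 101 and 38.0% of 171 reads untreated and 60.8% of 125 reads in dTAG13 replicate 2 (52.0 to 68.9, against 24.3 to 42.3 and 31.1 to 45.5). The treated library was thus higher at both, with no value in dTAG13 replicate 1. The positions listed in both libraries of 1 group and in none of the other were low: 16779613 and 16907584, untreated only, had 10.6% to 13.9%, and 16757386 and 16762698, dTAG13 only, had 10.0% to 17.2%. The highest level over at least 50 reads was 100% of 128 reads at 16794224, in dTAG13 replicate 2 alone.

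Ctnna1 had 65 and 69 listed sites untreated and 37 and 56 with dTAG13, a ratio of means of 0.694 with both treated libraries lower. Of its 200 positions, 35.0% fell in 1000 bases near its most 3′ listed site, and 11 of the 36 positions listed between 35386694 and 35387274 were shared by libraries. Position 35386838 was high in both groups, with 70.6% of 34 reads in untreated replicate 1, and 80% of 35 and 69.2% of 26 reads in the dTAG13 libraries. The intervals overlap throughout (the untreated one runs from 53.8 to 83.2), at the lowest depth of any site in 3 libraries. At 35386903 the level was 21.5% of 93 and 29.2% of 171 reads untreated and 18.1% of 238 reads in dTAG13 replicate 1, and at 35387063 it was 21.5% of 274 and 11.1% of 596 reads against 10.6% of 357 reads in dTAG13 replicate 2. Both treated values were below the untreated ones, in each case by less than the untreated libraries differed from each other.

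The high site of Ctnna1 had a low neighbour 13 bases on, at 35387514, with 13.7% of 488 and 10.9% of 1106 reads in the untreated libraries only. Position 35387083 had 19.3% of 305 and 20.4% of 401 reads, and 35387274 had 23.7% of 198 and 15.9% of 302 reads, both untreated only. Positions 35312986, 35377873 and 35377882 were likewise untreated only, at 12.6% to 44.0%. Just 1 position, 35377023, was listed in both dTAG13 libraries and no untreated one, at 37.7% of 77 and 10.7% of 346 reads. Of the 9 positions listed in both untreated libraries, 7 were in no dTAG13 library (77.8%, against 20066 of 25086 over all genes).

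Ctnnb1 was the only one of the 9 genes with more listed sites in both treated libraries, 53 and 49 against 40 and 32. The ratio of means was 1.42, and between 1.28 and 1.59 with any 1 library left out. Over all 12520 genes with a site in every library, 4.53% had more sites in both treated libraries and 44.6% had fewer. Of the 9 genes 1 and 4 did so, the 4 being Nectin1, Afdn, Cdh1 and Ctnna1. Among 1099 genes with at least 30 sites in each library the shares were 4.55% with more and 60.3% with fewer, and of the 6 members in that class Ctnnb1 had more and Afdn and Ctnna1 fewer. The Ctnnb1 sites were mostly weak, with 35 of 40 and 26 of 32 untreated sites under 20%, and 43 of 53 and 39 of 49 treated ones. Counting sites under 20% alone, Ctnnb1 and Afdn had more in both treated libraries (2 of 9 genes, 5.66% of all genes), and Nectin1, Nectin3, Cdh1 and Ctnnd1 had fewer (4 of 9, 29.8% of all genes).

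Beside its high site, Ctnnb1 had one of the deepest and most even positions of the set. Position 120789028 had 25.4% of 2598 reads (23.8 to 27.2) and 25.7% of 2632 reads (24.1 to 27.4) in the untreated libraries and was not listed after dTAG13. Listed positions 6 and 8 bases away had 970 and 1047 reads there, at 15.9% and 11%. Lower sites were also seen untreated only, at 120788649, 11 bases before the high site (17.7% of 796 and 11.3% of 966 reads), at 120788519 (14.2% of 1122 and 23.8% of 902 reads), at 120781953 (14.4% of 507 and 10.9% of 1216 reads) and at 120779624 (17.5% of 361 and 15.5% of 252 reads). In both dTAG13 libraries alone stood 120787713, at 13.0% of 1451 and 16.4% of 2596 reads, 120779297 (15.1% of 139 and 10.4% of 405 reads), 120779600 (10.2% of 216 and 28.7% of 254 reads) and 120788617. No position of Ctnnb1 was listed in 3 libraries or more. Of its 21 positions in 2 libraries, 6 were untreated only, 4 were treated only and 11 were in 1 library of each group. At those 11 positions, 5 levels were lower with dTAG13 and 6 higher, with a median difference of 0.209 points.

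Ctnnd1 had 54 and 65 sites untreated and 64 and 59 treated, with overlapping groups. Some 1719 bases from its high site, position 84431452 was listed in all 4 libraries, at 13.7% of 555 and 14.5% of 890 reads untreated and 10.1% of 276 and 17.3% of 433 reads treated. The treated values lay on either side of the untreated ones, and the difference of -0.361 points had an adjusted p of 0.997 in the quasi-binomial model. Its neighbour 84431448, 4 bases away, had 11.9% of 544 and 10.3% of 865 reads untreated and 13.3% of 427 reads in dTAG13 replicate 2. Near the high site, 84433077 had 17.7% of 158 and 11.7% of 539 reads in the untreated libraries only. Ctnnd1 thus held a high site with no high treated value and, not far from it, a weak site whose levels overlapped between the groups. The highest single-library level over at least 50 reads was 100% of 90 reads, at 84422436 in untreated replicate 1.

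Tested sites were few because the model needs a value of at least 20 reads in each library, and a site that falls under 10% leaves the tables. Of 2321 such sites in all genes and between genes, 2.2% passed at an adjusted p under 0.05 as lower with dTAG13 and 0.0862% as higher. Neither the site in Afdn nor the one in Ctnnd1 passed, and Nectin1 is described without a test. The 53 calls over all genes became 0 when any 1 library was left out. Restricting the model to positions listed in 4 libraries thus left 6 of the 9 genes without a tested site.

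Most positions appeared once. Of the 1617 positions, 1463 were listed in 1 library (90.5%, against 91.4% over all genes), 135 in 2, 14 in 3 and 5 in all 4. Joined into clusters of positions at most 50 bases apart, 208 of 396 clusters (52.5%) held sites of at least 2 libraries and 71 held sites of all 4. In Ctnna1 and Ctnnb1 75.9% and 73.1% of clusters were shared, and in Cdh1 18.8%. Ctnna1 had 200 positions in 29 clusters, Ctnnb1 153 in 26 and Cdh1 34 in 16. A cluster that joins more positions can more easily hold several libraries. The share of clusters over all genes was not computed.

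Of 51 positions listed in both untreated libraries, 37 were in no dTAG13 library (72.5%, against 20066 of 25086 over all genes), and of 31 listed in both dTAG13 libraries, 21 were in no untreated one (67.7%, against 68.8%). The 37 had mean untreated levels from 10.5% to 81.1% with a median of 19.9%, and 29 were under 40%. Low sites thus went unlisted as well as high ones: of sites at 10 to 40% with at least 50 reads in both untreated libraries, 26 of 39 in the 9 genes were in no dTAG13 library, and 75.8% of 14248 over all genes. With the groups exchanged, 19 of 27 such sites in the 9 genes were in no untreated library, and 65.6% of 7946 over all genes. A listed position lay within 150 bases of 31 of the 37 in dTAG13 replicate 1, with a median of 147 reads there, and of 34 in dTAG13 replicate 2, with a median of 232.5 reads. Where a position was listed in both libraries of a group, the replicates differed by a median of 6.43 points untreated and 7.45 points treated, and by more than 50 points at 5 untreated positions. Over all genes the medians were 9.67 and 8.28 points. At the 96 positions listed in at least 1 library of each group, 37 were lower with dTAG13 and 59 higher, with a median difference of 3.21 points, against 43.1% lower and a median of 1.57 points over all genes.

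Over the 9 genes together, listed sites numbered 488 and 470 untreated (479 ± 12.7, SD, n = 2) and 386 and 451 with dTAG13 (418.5 ± 46.0, SD, n = 2). The treated libraries were both lower, with an exact two-sided permutation p of 0.333, the smallest that 2 against 2 libraries allow. In the whole series both treated libraries were lower as well, and by a larger proportion. There 335607 and 350462 sites were listed untreated and 220034 and 263069 with dTAG13. Sites of 50% or more numbered 108 and 109 against 108 and 121, with an exact two-sided permutation p of 1, and per gene the groups overlapped in each of the 9, where 21.5% of all genes had fewer such sites in both treated libraries and 7.37% had more. Sites of 90% or more numbered 47 and 38 against 61 and 61, both treated libraries higher, again at the smallest exact p of 0.333. Ctnna1, with 1 and 1 against 3 and 8, and Ctnnd1, with 10 and 9 against 19 and 14, were the 2 of 9 genes with more such sites in both treated libraries, where 8.25% of all genes were. Over all genes the listings of 90% or more, added over the libraries of a group, fell from 80765 untreated to 68595 with dTAG13. As a share of listings they went from 15.2% to 18.0% over all genes and from 8.87% to 14.6% in the 9 genes. The median level of all listed sites was 25.0% and 26.8% untreated and 26.4% and 25.5% treated, so the groups overlapped.

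**Figure D3:**
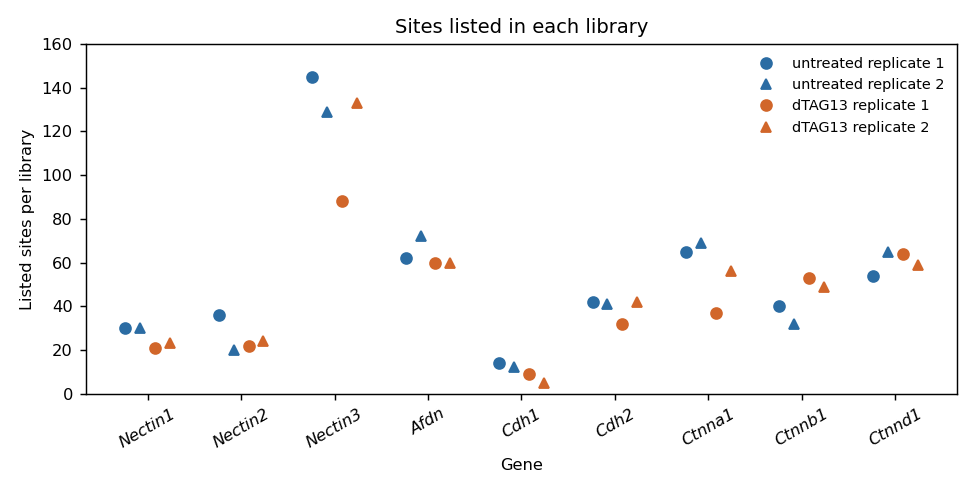
Number of listed sites of each gene in each library, with the gene on the x axis and listed sites per library on the y axis; each point is 1 library. Nectin3 ranges from 88 to 145, Cdh1 from 5 to 14, and Ctnnb1 is the gene with both dTAG13 points (53 and 49) above both untreated ones (40 and 32).

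High levels went with shallow reads in both groups. Of the 1795 listings, those at 10 to 20% had a median of 252.5 reads and those at 90% or more a median of 31 reads, with 70.5% of the latter under 50 reads. Over all genes the same classes had medians of 192 and 32 reads. At least 5 reads with A were needed for a listing, so a level near 10% required more depth than a level of 90%. How much of the difference in depth comes from this limit was not tested. A listing at 90% or more had another listed site of the same library within 50 bases in 41.5% of cases, and one at 10 to 20% in 78.8%. The 3 high catenin sites had 139 to 1148 reads in the untreated libraries, but at least 50 reads were required in choosing them. The count of sites at 90% or more rests largely on shallow positions.

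**Figure D4:**
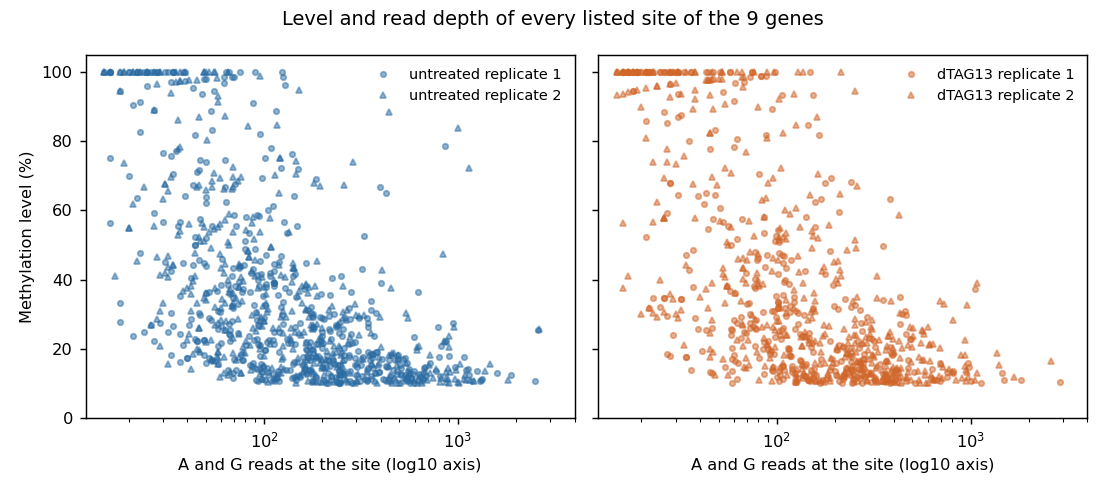
Level (%) against the number of A and G reads (log10 axis) of the listed sites of the 9 genes, untreated libraries on the left and dTAG13 libraries on the right; each point is 1 site in 1 library. The axis ends below the deepest listing, which had 4941 reads in Ctnnb1 in untreated replicate 2. Sites at 90% or more have a median of 31 reads and sites at 10 to 20% a median of 252.5, and the few deep points above 60% on the left include the catenin sites with up to 1148 reads.

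Gene coverage, a value that the tables give for each gene without saying how it was computed, was of the same order in 8 of the 9 genes and far higher in Ctnnb1. Ctnnb1 had 1645 and 1864 untreated and 841 and 1306 with dTAG13. Relative to the median gene of each library that was 16.6 and 18.1 times against 10.2 and 11.8 times, so both treated libraries were lower. The log2 change was -0.66 ± 0.21 (SE, n = 2 per group), with an unadjusted p of 0.0197 and an adjusted p of 0.363 in limma over 12520 genes, which did not pass. Leaving out 1 library at a time gave log2 changes from -0.76 to -0.56. The gene with more listed sites was thus the one whose coverage was lower by the most.

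Coverage of the others was 152 and 97.2 against 81.0 and 178 in Nectin1, 134 and 123 against 89.8 and 124 in Nectin2, and 141 and 146 against 129 and 147 in Nectin3. In Afdn it was 194 and 153 against 120.0 and 174, and in Cdh2 186 and 255 against 139 and 209. Among the catenins Ctnna1 had 186 and 238 against 150.2 and 164, and Ctnnd1 149 and 160.5 against 118 and 156. Relative to the median gene, Ctnna1 had a log2 change of -0.34 ± 0.23 (SE, adjusted p 0.548 in limma), and the remaining 7 genes had adjusted p between 0.633 and 0.970. No gene of the 9 passed, and no gene of the whole table did (1595 of 12520 had an unadjusted p under 0.05, and 1 of the 9). Both treated libraries were below both untreated ones, relative to the median gene, in 4 of 9 genes (Nectin2, Ctnna1, Ctnnb1 and Ctnnd1) and in 29.2% of all genes. In 7 of 9 genes the change was negative, with a median log2 change of -0.20, against 7095 of 12520 genes and a median of -0.07 over all genes.

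**Figure D5:**
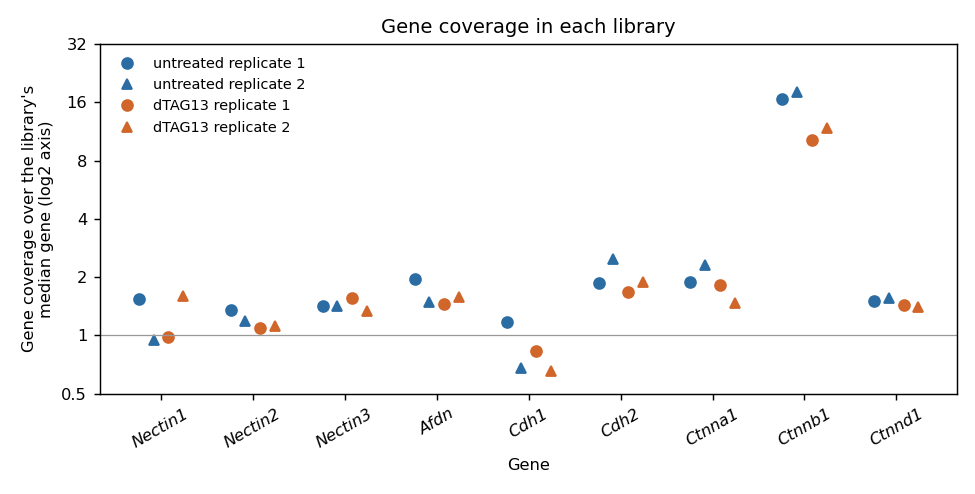
Gene coverage divided by the median gene of the library (log2 axis) for each gene; each point is 1 library. Ctnnb1 stands at 16.6 and 18.1 untreated and 10.2 and 11.8 with dTAG13, and the other 8 genes lie between 0.654 and 2.47.

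A wider list of 36 other junction genes, among them further nectin-like, cadherin, catenin and scaffold genes, was chosen with the same prior knowledge. Of these, 28 had a coverage value in all 4 libraries. None passed at an adjusted p under 0.05 in limma, 1 had an unadjusted p under 0.05, 16 were negative, and the median log2 change was -0.09. Over all genes 7095 of 12520 were negative, with a median of -0.07. The 4 with the smallest p were Cdh4, another classical cadherin (log2 change 0.65 ± 0.20, adjusted p 0.363), Pkp4, a relative of p120-catenin (-0.52 ± 0.23, adjusted p 0.406), Vcl, the actin-binding vinculin (-0.34 ± 0.20, adjusted p 0.487), and Cadm1, a nectin-like adhesion gene (-0.34 ± 0.20, adjusted p 0.497). The whole list had 734 and 864 listed sites untreated and 467 and 574 with dTAG13.

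The conversion rate, the share of adenosines in a gene that the chemistry changed, bears on every level, since unconverted adenosine also reads as A. It ranged from 93.9% to 98.0% over the 9 genes and 4 libraries. Both treated libraries were higher in Nectin2 (94.6% and 93.9% against 95.8% and 95.2%), Cdh2 (95.1% and 96.3% against 96.3% and 96.7%), Ctnna1 (94.3% and 95.6% against 96.0% and 96.8%) and Ctnnb1 (96.6% and 96.8% against 97.0% and 96.9%). That is 4 of 9 genes, against 40.9% of all genes, and none was lower in both, against 6.05%. In Ctnnd1 dTAG13 replicate 1 was the low one, with 94.3% against 96.2% and 96.7% untreated and 97.2% in the other treated library. No gene passed in limma on the log2 odds of conversion (0 of 12520 at an adjusted p under 0.05, 1540 at an unadjusted p under 0.05, none of these among the 9). The smallest adjusted p of the 9 genes was 0.521, in Ctnna1.

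Positions are given as in the deposited tables. The submitters' processing notes list the mouse build mm10, but just 7.97% of the 1795 listings fall inside the genes' intervals of that build, and a scaffold name in the tables belongs to GRCm39. The positions are therefore read as GRCm39. No genome or annotation of that build was used here, so exon, intron and untranslated region of each site were not analysed and no sequence is printed.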

How the data were processed

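RNA of mouse retinal organoids was converted by glyoxal and nitrite after polyA selection and fragmentation and was sequenced as paired reads, per the labels' protocols. The authors deposited 1 table of called sites per library, with no pooling of replicates. Per the file headers, each row of a deposited table holds read counts (A reads, and A plus G reads), their ratio as a fraction, the gene's conversion rate as a fraction, a gene coverage signal, and the authors' p-values. How that coverage was computed, the aligner and the caller are not given in the sources used here. The build mm10 is listed in the submitters' processing notes. The deposited fraction equals A reads over A plus G reads and was not corrected for unconverted adenosine.

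The 9 genes and the lists of other junction genes and cell type markers were chosen with earlier results of these data known. Groups came from the sample labels. Site levels were tested on the counts with a quasi-binomial model per site (dispersion moderated with limma 3.58.1 in R 4.3.3 and held at 1 or above, deviance F test) over all positions listed in 4 libraries with at least 20 reads in each. Gene coverage (log2, centred on the median gene) and the log2 odds of the conversion rate were tested with limma's lmFit and eBayes over all 12520 genes with a value in each library. P-values were adjusted by Benjamini-Hochberg with a threshold of 0.05. Single values were compared by exact permutation of the 4 libraries, and Wilson intervals came from SciPy 1.17.1. The models were tested on simulated data. Alternatives were other limits on level and reads, edgeR 4.0.16 and limma on log2 odds for the site levels, no centring, the replicate number as a block, and each library left out in turn.

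Of the sites, those listed in 3 or 4 libraries or in both libraries of a group are named, and for the rest counts, ranges and the highest level with at least 50 reads per gene are given. The depth behind each level is its read count, from 15 to 4941 reads over the 9 genes.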

Additional observations from a re-analysis of the deposited data

How the results depend on the processing

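For all listed sites the ratio of treated to untreated means, 0.874 as reported, stayed between 0.806 and 0.942 in the 9 alternatives. The ratio for sites of 50% or more, 1.06 as reported, was 0.966 at 40% or more, 1.44 at 90% or more and 0.981 for sites with at least 50 reads, and 0.995 to 1.12 with 1 library left out. Positions shared by libraries numbered 154, and 78 to 102 with 1 library left out, which leaves fewer libraries to share. The count of 3 high catenin sites was the same at 40% or more and with at least 100 reads, both alternatives chosen after seeing the data.

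Leaving out 1 library took the 53 site calls over all genes to 0 to 0 and the 46 gene calls to 0 to 5, with fewer samples in the fit. No centring of gene coverage gave 15 calls (9 lower, 6 higher), none of them among the 9 genes, and moved the median gene by -0.149 on the log2 scale.

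Replicate numbers did not pair the libraries: deviations of same-numbered libraries correlated at 0.0023 for gene coverage and 0.0385 for site levels. With the replicate number as a block, site calls and gene calls were 0 and 0.

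Uncalled differences near 0 changed sign in places. Without centring this was so for coverage of Nectin1 (adjusted p 0.997) and Nectin3 (adjusted p 0.985). With 1 library left out, adjusted p ranged from 0.710 to 0.992 for Afdn 14124717 and from 0.881 to 1 for Ctnnd1 84431452. For coverage the range was 0.638 to 0.868 in Nectin1, 0.811 to 0.989 in Nectin3, 0.730 to 0.986 in Afdn and 0.628 to 0.938 in Cdh1. For conversion it was 0.551 to 0.988 in Nectin1, 0.535 to 0.994 in Nectin3, 0.965 to 0.998 in Afdn, 0.403 to 0.988 in Cdh1 and 0.402 to 0.976 in Ctnnd1. The cause of these changes was not tested. A position missing from a table has no depth, so a lost site cannot be told from an uncovered one.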
